A study of Mus musculus with 143 samples.

Results

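The genes Exosc1 to Exosc9 encode the subunits of the RNA exosome core, and their messages were followed in single mouse oocytes across stage and genotype. The members were taken by gene symbol. All 9 were found, among 55573 gene identifiers in the poly(A) libraries and 55487 in the libraries made after removal of ribosomal RNA (RiboMinus). In the poly(A) data all 9 passed the filter on low counts. In the RiboMinus data Exosc6 was listed at 0 in all 48 libraries, and 8 members were tested. Whether the poly(A) and RiboMinus counts used the same annotation is not given in the sources used here, so this 0 is not read as a level.

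The RNA exosome degrades and trims RNA from its 3′ end. EXOSC4 to EXOSC9 carry RNase PH folds and form a ring, EXOSC1, EXOSC2 and EXOSC3 carry S1 RNA-binding domains and cap that ring, and in mammals the assembled barrel has no catalytic activity of its own. RNA is threaded through it to the ribonuclease DIS3, while a further nuclease, EXOSC10, sits at the cap in the nucleus. Fully grown oocytes are largely silent in transcription and live on stored messages, many of which are deadenylated and cleared as the oocyte matures to a metaphase II egg.

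Poly(A) libraries came from single fully grown oocytes before nuclear envelope breakdown (germinal vesicle stage, GV), from such oocytes after 3 h in culture (GV3h), and from eggs that superovulated mice had shed into the oviduct (MII), as control (8 libraries at each stage) and Dis3 conditional knockout (Dis3 cKO; 15, 16 and 16 libraries). RiboMinus libraries, 8 a group, came from single adult GV oocytes, control and Dis3 cKO, and from oocytes of postnatal day 20 (p20), a growing stage, as control, Dis3 cKO, Exosc10 cKO and the double knockout of both genes (dcKO). Per the labels the mutant mice were made with CRISPR/Cas9. The strain, the promoter that drives the deletion, the adult age and what the control females carry are not given in the sources used here. CUT&Tag peak lists, 3 a group, from pooled oocytes gave RNA polymerase II (Pol II) in adult control, adult Dis3 cKO and p20 control oocytes, and the histone mark H3K27me3 in adult control, adult Dis3 cKO, p20 control and dcKO oocytes. Nothing in the labels says that libraries of a group came from separate animals, so p-values measure the spread between libraries.

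A poly(A) library held 4843964 to 15412200 gene counts, 1648 to 6391 of them on the members, and a RiboMinus library 8492102 to 35429028, with 1474 to 5905 on the members. Levels are given as counts per 1e+06 gene counts with TMM scaling (CPM). They were not divided by transcript length, so levels are compared between groups and not between genes. The targeted genes followed their labels: Dis3 in poly(A) Dis3 cKO libraries lay between 0 and 5.85 CPM at the 3 stages, against 2.67 to 20.9 CPM in controls over the same stages, and within each stage the groups did not overlap (at MII the highest knockout library stood at 2.37 CPM). Exosc10 lay between 0.347 and 14.4 CPM in Exosc10 cKO and dcKO libraries, against 102 to 138 CPM in p20 controls. In RiboMinus libraries Dis3 was called lower (adjusted p below 0.05) in adult Dis3 cKO, p20 Dis3 cKO and dcKO than in control. Exosc10 was also called lower in GV3h Dis3 cKO than in control, and higher in dcKO than in Exosc10 cKO. The summed level of 10 oocyte genes was 7405 CPM or more in every library. At p20 it ran from 10466 to 14418 CPM in controls, from 10227 to 14264 CPM in the single knockouts and from 14879 to 18024 CPM in dcKO. The dcKO libraries thus lay above all p20 controls, and the part of this shift in the dcKO results was not tested. Summed over 10 granulosa and cumulus genes, the poly(A) medians were 107 CPM in GV controls and 77.7 in Dis3 cKO, 80.9 and 62.7 at GV3h, and 81.0 and 57.1 at MII. The same list had RiboMinus medians of 88.7 CPM in adult controls, 105 in adult Dis3 cKO, 110 in p20 controls and 127 to 140 in the p20 knockouts. Of these 10 genes 9 reached 1 CPM in at least 1 poly(A) and 1 RiboMinus library and 1, Ptx3, did in none, and the part of these genes in the results was not tested.

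The members lie on 8 chromosomes of the GRCm38.p6 assembly, with Exosc8 and Exosc9 both on chromosome 3. RefSeq's promoter table for that build held 7 of the 9, all but Exosc4 and Exosc9. The windows of Exosc1 and Exosc6 are shown because these are the 2 members with a Pol II peak at their start, that of Exosc2 because this message was higher in Dis3 cKO oocytes, and that of Exosc5 because this message had the largest stage difference. Each runs from 150 bases before to 30 after the annotated start, 5′ to 3′ on the gene's own strand. Capitals mark exact matches on either strand to the CCAAT box (CCAAT), the GC box (GGGCGG), the YY1 motif (AAGATGGC) or the NRF1 motif (GCGCATGCGC, which reads the same on both strands).
Exosc1, minus strand, chr19:41933285-41933464: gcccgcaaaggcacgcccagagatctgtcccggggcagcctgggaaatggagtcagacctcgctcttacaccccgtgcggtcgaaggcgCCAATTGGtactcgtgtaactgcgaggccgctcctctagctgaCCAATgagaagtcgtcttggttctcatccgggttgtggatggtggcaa
Exosc2, plus strand, chr2:31670565-31670744: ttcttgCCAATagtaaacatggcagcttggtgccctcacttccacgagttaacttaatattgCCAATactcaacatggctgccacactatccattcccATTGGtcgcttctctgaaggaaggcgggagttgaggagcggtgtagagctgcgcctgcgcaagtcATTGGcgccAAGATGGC
Exosc5, plus strand, chr7:25659003-25659182: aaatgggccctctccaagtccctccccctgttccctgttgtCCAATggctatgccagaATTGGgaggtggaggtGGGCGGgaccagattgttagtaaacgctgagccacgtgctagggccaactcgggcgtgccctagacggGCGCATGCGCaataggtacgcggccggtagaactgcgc
Exosc6, plus strand, chr8:111056189-111056368: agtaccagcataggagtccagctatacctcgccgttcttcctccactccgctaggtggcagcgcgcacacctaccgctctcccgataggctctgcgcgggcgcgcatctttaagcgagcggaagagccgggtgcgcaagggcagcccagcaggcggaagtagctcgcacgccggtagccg

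The motifs were searched over 300 bases at each start. The YY1 motif was present in Exosc2 alone of the 7 members and in 2.75% of 32851 RefSeq promoters, and the NRF1 motif in Exosc5 alone and in 0.971% of promoters. The CCAAT box was present in Exosc1, Exosc2 and Exosc5 (37.4% of promoters), the GC box in Exosc1, Exosc3, Exosc5, Exosc7 and Exosc8 (35.7%), and the ETS motif (CCGGAAG) in Exosc3 (8.86%). No member had the TATA box (TATAAA), which 13.6% of promoters held, and Exosc6 had none of the 6 motifs. Over the same 300 bases the members held 11 to 41 CpG dinucleotides, against a median of 7 over all promoters. A match is a description of these letters, not of a bound site.

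Exosc9, a ring subunit with an RNase PH fold, fell in every knockout compared with its own control under TMM scaling. In GV controls the Exosc9 level was 31.8 CPM at the lowest, 43.2 at the median and 46.8 at the highest (mean 41.4 ± 5.27, SD, n = 8), and in GV Dis3 cKO oocytes it was 9.68, 17.4 and 29.7 CPM (18.1 ± 4.94, n = 15). The groups did not overlap: all 15 knockout oocytes lay below the lowest control. The log2 fold change was -1.20 ± 0.17 (SE), with an adjusted p of 7.11e-08 in the quasi-likelihood test of edgeR after Benjamini-Hochberg adjustment, the test behind every adjusted p here. At GV3h the Exosc9 level ran from 35.5 over a median of 48.2 to 78.6 CPM in controls and from 18.4 over 29.8 to 50.3 CPM in Dis3 cKO (log2 fold change -0.75 ± 0.17, adjusted p = 0.000215). All 16 knockout oocytes were below the control mean, although the ranges overlapped. At MII, controls ran from 51.3 over 70.1 to 86.4 CPM and knockouts from 29.5 over 40.4 to 86.6 CPM (-0.69 ± 0.17, adjusted p = 0.000612). With scaling to the spiked ERCC RNAs this MII difference was -0.39 and did not pass (adjusted p = 0.13). Of the 16 knockout eggs 14 lay below the lowest control and 1 lay above the highest.

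The Exosc9 levels of GV3h knockout oocytes fell apart by the numbers in the sample titles, whose meaning the labels do not give. The 8 oocytes numbered 1 to 8 had 18.4 to 24.0 CPM, and the 8 numbered 9 to 16 had 35.5 to 50.3 CPM, so these sets did not overlap. Against all GV3h controls the Exosc9 difference was -1.30 (adjusted p = 1.89e-08) with the first set alone and -0.39 (adjusted p = 0.0533) with the second alone. The same numbers gave overlapping Exosc9 ranges at GV (9.68 to 29.7 CPM and 14.5 to 22.7 CPM) and at MII (29.5 to 46.4 CPM and 35.3 to 86.6 CPM). Whether the numbers stand for animals, plates or days cannot be told from the labels. With counts summed over 4 consecutive numbers, Exosc9 was still lower at all 3 stages (-1.26 with an adjusted p of 0.005, -0.82 with 0.033 and -0.79 with 0.0343).

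**Figure D1:**
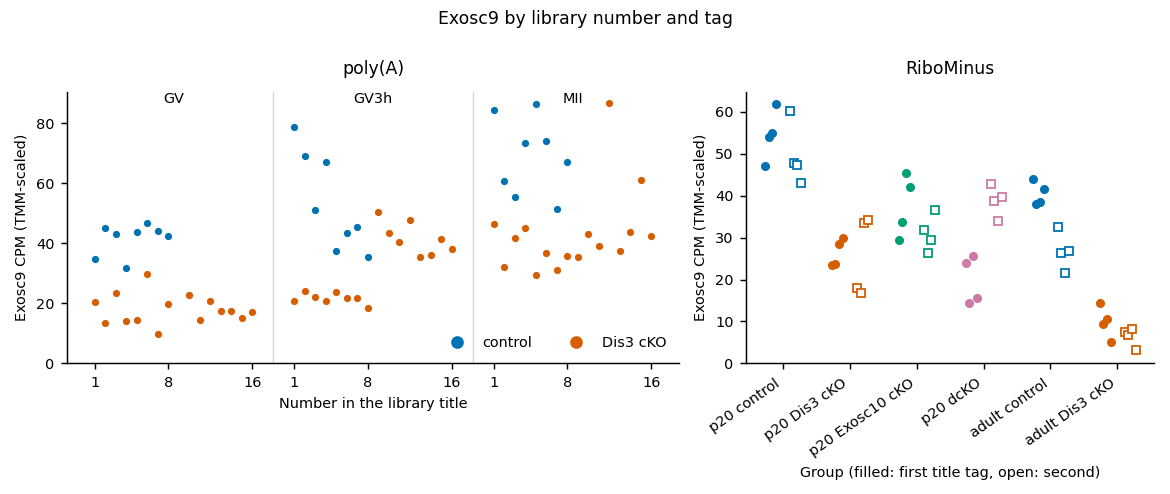
Exosc9 level (CPM) in each poly(A) library against the number in its title, with GV, GV3h and MII side by side. Control and Dis3 cKO libraries are drawn in different colours. A further panel gives Exosc9 in each RiboMinus library by group and title tag. At GV3h the Dis3 cKO libraries numbered 1 to 8 sit between 18.4 and 24.0 CPM and those numbered 9 to 16 between 35.5 and 50.3 CPM.

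In the RiboMinus data Exosc9 was the member that differed most between adult GV oocytes of the 2 genotypes. Controls held 21.5 CPM at the lowest, 35.3 at the median and 43.9 at the highest, and adult Dis3 cKO oocytes 3.14, 7.81 and 14.5 CPM. No oocyte of one group reached the other's range, and the log2 fold change of Exosc9 was -2.02 ± 0.25 (adjusted p = 1.25e-05). At p20, control levels of Exosc9 were 43.0, 50.9 and 61.9 CPM. Dis3 cKO libraries had 16.7, 26.2 and 34.1 CPM, without overlap (-1.0 ± 0.19, adjusted p = 0.0003). Those of dcKO had 14.3, 29.8 and 42.9 CPM, again all below the lowest control (-0.82 ± 0.18, adjusted p = 0.000347).

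Exosc10 cKO libraries had 26.4, 32.8 and 45.5 CPM of Exosc9, and 7 of 8 lay below the lowest p20 control (-0.60 ± 0.18, adjusted p = 0.0379). This call was lost when any 1 of 10 of the 16 libraries was left out (4 controls and 6 Exosc10 cKO, adjusted p from 0.0507 to 0.0799) and with scaling to the spiked ERCC RNAs (-0.58, adjusted p = 0.3). The 3 p20 knockouts were compared with the same 8 controls. Directly compared, Exosc9 in dcKO was 0.18 higher than in Dis3 cKO on the log2 scale (95% interval -0.20 to 0.57, adjusted p = 0.431) and -0.22 against Exosc10 cKO (-0.59 to 0.15, adjusted p = 0.34), so no difference was detected. The Dis3 cKO difference of Exosc9 was larger in adult GV than in p20 oocytes by -1.05 ± 0.30 (adjusted p = 0.0169). In this test 3.98% of genes were lower, and Exosc9 was the 1 member of 8. The call was lost with ERCC scaling (-1.20, adjusted p = 0.0834) and with counts summed per title tag (-1.11, adjusted p = 0.362). Of all genes, those fits called 583 and 70, against 1610 in the main fit.

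Titles of the RiboMinus libraries also carry a tag, 2 a group, that may mark an animal but is not explained in the labels. In dcKO the Exosc9 level was 14.3 to 25.6 CPM under tag 1 and 33.9 to 42.9 CPM under tag 2, and in adult controls 38 to 43.9 CPM under AM1758 and 21.5 to 32.6 CPM under AM1759. The tags of these groups did not overlap. Every pairing of a knockout tag with a control tag had less Exosc9 in the knockout, 4 of 4 in each comparison, with log2 ratios of -2.67 to -1.43 in adult GV, -1.10 to -0.91 in p20 Dis3 cKO, -0.81 to -0.39 in Exosc10 cKO and -1.45 to -0.35 in dcKO. Counts were also summed per tag, leaving 2 sums a group. The adjusted p of Exosc9 was then 0.119 in adult GV, 0.15 in p20 Dis3 cKO, 0.419 in Exosc10 cKO and 0.0439 in dcKO. Its differences were -2.11, -1.01, -0.61 and -0.85 in that order. Of all genes, 0 were called with these sums in adult GV, 286 in p20 Dis3 cKO and 174 in Exosc10 cKO. Exosc9 overlaps Ccna2, which encodes cyclin A2, and no source used here says whether reads were counted by strand, so reads of the overlap cannot be told apart. Ccna2 itself differed by -0.18 to 0.22 on the log2 scale in the 7 knockout comparisons with a control, and none passed the test.

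**Figure D2:**
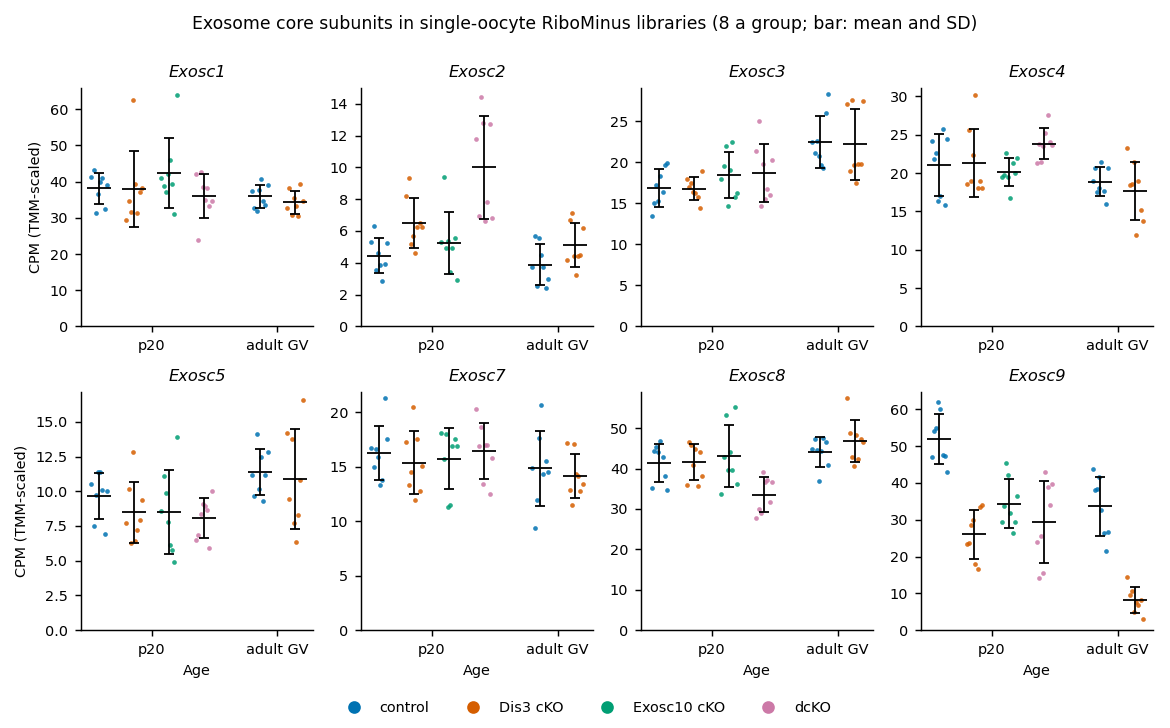
Level (CPM, RiboMinus) of the 8 members with counts in single adult GV and p20 oocytes by genotype, with 1 point per library and the group mean as a bar. Exosc9 is lower in each knockout than in its control, with adult Dis3 cKO between 3.14 and 14.5 CPM, and Exosc2 in dcKO lies above the highest p20 control of 6.30 CPM.

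The cap subunit gene Exosc2, whose product binds RNA through S1 and KH domains, rose in Dis3 cKO at all 3 poly(A) stages. In GV controls its level was 6.13 CPM at the lowest, 14.8 at the median and 20.5 at the highest, and in GV Dis3 cKO oocytes 12.5, 25.1 and 37.7 CPM. Ranges overlapped, with 12 of 15 knockout oocytes above the highest control (log2 fold change 0.88 ± 0.19, adjusted p = 0.000253). With ERCC scaling this Exosc2 difference was 0.64 (adjusted p = 0.0763). At GV3h, Exosc2 ran from 14.2 over 20.4 to 24.0 CPM in controls and from 21.6 over 33.5 to 53.2 CPM in knockouts, where 15 of 16 exceeded every control (0.83 ± 0.19, adjusted p = 0.000241). At MII the values were 7.67, 18.6 and 29.5 CPM in controls and 16.8, 31.2 and 46.7 CPM in knockouts, 10 of 16 of them above the highest control (0.77 ± 0.19, adjusted p = 0.000547).

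In RiboMinus libraries the Exosc2 message rose in dcKO. Levels at p20 were 2.84, 4.29 and 6.30 CPM in controls (lowest, median, highest), 4.62, 6.24 and 9.32 in Dis3 cKO, 2.90, 5.14 and 9.37 in Exosc10 cKO and 6.61, 9.82 and 14.4 in dcKO. The dcKO libraries did not overlap the controls, and the log2 fold change of Exosc2 was 1.17 ± 0.23 (adjusted p = 5.37e-05). In Dis3 cKO it was 0.54 ± 0.23 (adjusted p = 0.155), in Exosc10 cKO 0.23 (adjusted p = 0.625) and in adult GV Dis3 cKO 0.42 ± 0.23 (adjusted p = 0.194), and none of these passed. Exosc2 in dcKO also exceeded that in Exosc10 cKO (0.94, adjusted p = 0.000787) and in Dis3 cKO (0.63, adjusted p = 0.0203). The last call was lost without dcKO library 1_3, 1_4 or 2_3 or Dis3 cKO library 2_1 (adjusted p from 0.0508 to 0.0664) and with counts summed per title tag (0.162). The lncRNA gene Gm13427 overlaps Exosc2 and did not pass the filter on low counts.

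The other cap subunits, Exosc1 and Exosc3, passed the test against control at MII. Exosc1, the cap subunit with the homologue Csl4 in yeast, held 25.0, 31.6 and 35.6 CPM in control eggs and 13.1, 22 and 28.3 CPM in Dis3 cKO eggs (lowest, median, highest). All 16 knockout eggs lay below the control mean of Exosc1 and 11 below the lowest control (-0.50 ± 0.11, adjusted p = 0.000105). With ERCC scaling the Exosc1 difference was -0.14 (adjusted p = 0.569). Exosc1 was at -0.16 at GV and -0.14 at GV3h, which did not pass, but with knockouts numbered 9 to 16 alone both did (-0.34 with an adjusted p of 0.04 and -0.35 with 0.0181). Exosc3, the cap subunit whose human gene is mutated in pontocerebellar hypoplasia, ran from 66.9 over 83.0 to 112 CPM in controls and from 57.3 over 96.7 to 141 CPM in knockouts. The ranges of Exosc3 overlapped broadly (0.30 ± 0.12, adjusted p = 0.0298). This call was lost with no filter on low counts (adjusted p = 0.108) and without GV control library 1, which enters the shared fit (0.0535). It was also lost with knockouts numbered 1 to 8 alone (0.12) and with counts summed over 4 title numbers (0.294). With ERCC scaling the Exosc3 difference was 0.69 (adjusted p = 0.0049). The Dis3 cKO difference at MII was not called different from that at GV for Exosc1 (-0.34, adjusted p = 0.138) or Exosc3 (0.28, adjusted p = 0.275), although that of Exosc3 passed with ERCC scaling (0.93, adjusted p = 0.0103) and that of Exosc1 with knockouts numbered 1 to 8 alone (-0.54, adjusted p = 0.00992). In RiboMinus knockouts Exosc1 and Exosc3 had log2 fold changes of -0.07 to 0.16 against control, and none passed.

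Among ring subunits, Exosc7, Exosc8 and Exosc6 were higher in Dis3 cKO eggs. Exosc7, also of the RNase PH family, had 23.7, 36.6 and 44.6 CPM in MII controls and 32.7, 52.9 and 64.5 CPM in knockouts, with 14 of 16 knockout eggs above the highest control (0.55 ± 0.11, adjusted p = 5.81e-05). Its difference at MII exceeded that at GV by 0.58 ± 0.16 (adjusted p = 0.00793). The excess was 0.56 with counts summed over 4 title numbers (adjusted p = 0.191) and 1.22 with ERCC scaling (adjusted p = 0.00161). Exosc8, a ring subunit also linked to pontocerebellar hypoplasia, had 35.3, 67.9 and 89.1 CPM in controls and 64.3, 78.1 and 144 CPM in knockouts (0.42 ± 0.11, adjusted p = 0.00128). All 16 knockout eggs exceeded the control mean of Exosc8 and 6 the highest control. This MII call of Exosc8 was lost with counts summed over 4 title numbers (0.32, adjusted p = 0.118) and with knockouts numbered 1 to 8 alone (0.27, adjusted p = 0.0789). Its excess over the GV difference was 0.44 ± 0.15 (adjusted p = 0.0447). That call was lost with DESeq2 (adjusted p = 0.0678), without MII Dis3 cKO library 15 (0.0585), without GV control library 1 (0.125), and under 5 further alternatives (0.0519 to 0.338). With ERCC scaling the excess of Exosc8 was 0.97 (adjusted p = 0.00211). Supt20, a transcription cofactor gene that overlaps Exosc8, differed the other way in these eggs (-0.39 ± 0.15, adjusted p = 0.0309).

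Exosc6, a ring subunit encoded by a short locus of 1326 bases, was the least counted member. At GV its level was 1.95, 3.02 and 6.40 CPM in controls and 3.32, 6.49 and 7.64 CPM in Dis3 cKO, a difference that did not pass (0.74 ± 0.36, adjusted p = 0.136). It passed with DESeq2 (0.76, adjusted p = 0.0455) and with the title number as a replicate block (0.93, adjusted p = 0.0464), and did not pass with ERCC scaling, no filter, either set of title numbers alone or sums over 4 of them (adjusted p from 0.183 to 0.438). At GV3h it was 1.71, 3.06 and 5.65 CPM in controls and 3.23, 6.95 and 14.5 CPM in knockouts, 13 of 16 of which exceeded every control (1.31 ± 0.36, adjusted p = 0.00269). At MII it was 0, 0.242 and 0.923 CPM in controls and 0, 0.772 and 2.81 CPM in knockouts (1.44 ± 0.43, adjusted p = 0.00456). The MII values of Exosc6 rest on 0 to 9 counts per control library and 0 to 24 per knockout library, and 1 library of each group was at 0. Summed over 4 title numbers, the adjusted p of Exosc6 was 0.0577 at GV3h and 0.0649 at MII, and with knockouts numbered 9 to 16 alone the MII difference was 1.10 (adjusted p = 0.0721).

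Exosc4 and Exosc5, 2 further ring subunits, did not pass the test in any knockout compared with control. The Exosc4 difference in Dis3 cKO was -0.50 ± 0.20 at GV (adjusted p = 0.0542), 0.12 ± 0.20 at GV3h and -0.40 ± 0.20 at MII (adjusted p = 0.111). Of the GV knockout oocytes 10 of 15 lay below the lowest control of Exosc4, 46.1 CPM. Exosc4 at GV passed the test with ERCC scaling (-0.75, adjusted p = 0.0448), with the title number as a replicate block (-0.55, adjusted p = 0.0492) and without GV control library 1 (-0.54, adjusted p = 0.0488). It did not pass with DESeq2, with no filter, with either set of title numbers alone or with counts summed over 4 of them (adjusted p from 0.0524 to 0.188). For Exosc5 the differences were -0.37 ± 0.22 at GV, -0.19 ± 0.22 at GV3h and 0.16 ± 0.26 at MII. In adult RiboMinus oocytes the Exosc5 difference of -0.03 became -0.60 with ERCC scaling and then passed (adjusted p = 0.0478).

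Counted together, 1 of 9 members was higher and 1 lower in GV Dis3 cKO, where 13.6% and 8.33% of 17389 tested genes were called in those directions. At GV3h 2 were higher and 1 lower (22.9% and 15.7% of genes), and at MII 5 were higher and 2 lower (27.3% and 14.8%). The median log2 fold change of the members was -0.03, 0.12 and 0.30 at these stages, beside 0.04, 0.07 and 0.16 over all tested genes. Scaling to ERCC RNAs moved the GV median of all genes to -0.23 and the share of called genes that were higher from 62% to 35.3%. Under it 0 members were higher and 2 lower at GV, Exosc4 and Exosc9 (7.27% and 13.3% of all tested genes). At MII it moved the median of all genes to 0.52 and that share from 64.8% to 89.7%, and 5 members were called, all higher (37.6% of all tested genes), and Exosc9 was at -0.39 (adjusted p = 0.13). MII Dis3 cKO library 15 had a gene to ERCC ratio of 14.39, against 48.59 to 80.98 in the other libraries of its group. It enters every ERCC-scaled value of MII Dis3 cKO, and no ERCC-scaled values without it are given here. The summed level of the 9 members was 370 ± 34.5 CPM in GV controls and 328 ± 22.9 in knockouts, 377 ± 18.0 and 391 ± 39.2 at GV3h, and 314 ± 28.4 and 347 ± 37.6 at MII.

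**Figure D3:**
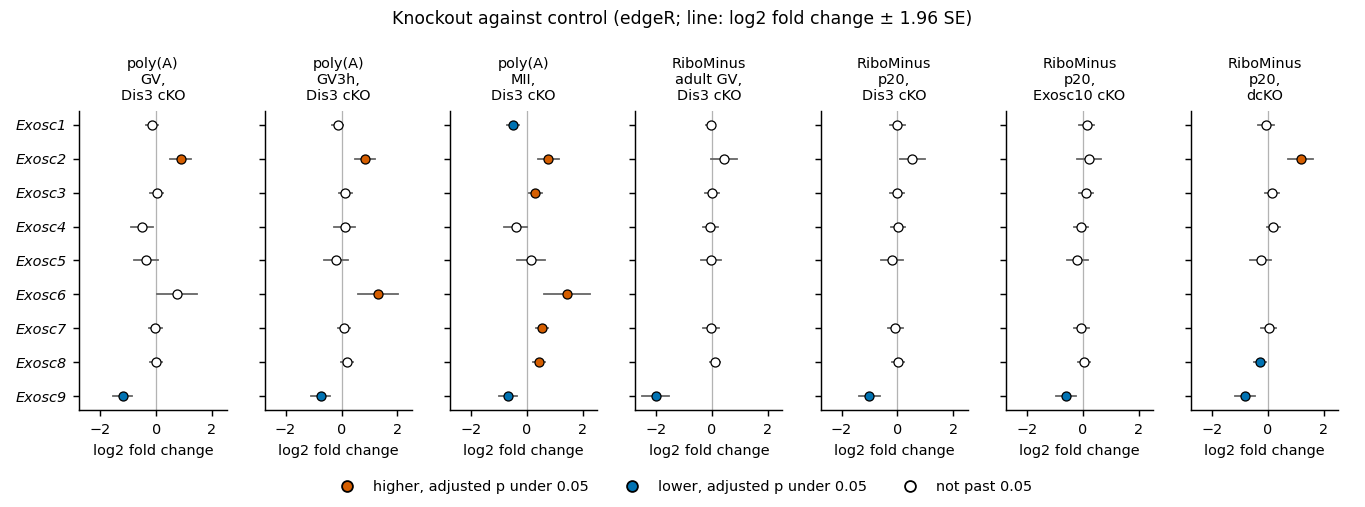
Log2 fold change against control with its 95% interval for each member in the poly(A) and RiboMinus knockout comparisons, where filled points passed the test. Exosc9 lies below 0 in every comparison, from -2.02 to -0.60, and Exosc2 lies above 0, from 0.23 to 1.17.

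In the RiboMinus data 1 of 8 members was called lower and 0 higher in adult GV Dis3 cKO (12.4% and 15.7% of 15334 genes). The same counts held in p20 Dis3 cKO (3.76% and 3.61% of 15882 genes) and in Exosc10 cKO (3.5% and 3.95%). The lower member was Exosc9 in each. With ERCC scaling the share of called genes that were higher went from 55.9% to 10.2% in adult GV and from 49% to 12.8% in p20 Dis3 cKO. In adult GV 5 members were then lower, Exosc1, Exosc3, Exosc5, Exosc7 and Exosc9, where 40.1% of all tested genes were lower and their median moved from 0.03 to -0.52. In dcKO 1 was higher and 2 lower, where 26.6% and 27.1% of genes were. The third was Exosc8, with 34.7, 43.4 and 46.9 CPM in controls and 27.8, 34.1 and 39.2 CPM in dcKO. All 8 dcKO libraries lay below the control mean of Exosc8 and 4 below the lowest control (-0.29 ± 0.11, adjusted p = 0.0197). That call was lost without control library 2_1 (adjusted p = 0.0559), with ERCC scaling (0.203), with no filter on low counts (0.0617) and with sums per title tag (0.112), and the overlapping gene Supt20 fell by more (-0.80 ± 0.12, adjusted p = 1.01e-06). Directly compared with the single knockouts, Exosc8 in dcKO was lower than in Dis3 cKO (-0.30, adjusted p = 0.0168) and in Exosc10 cKO (-0.35, adjusted p = 0.00651), where 51.5% and 49.2% of genes were called and Exosc2 was the other member called. These 2 Exosc8 calls were lost with ERCC scaling (-0.05 with an adjusted p of 0.869 and -0.41 with 0.119) and with sums per title tag (0.0903 and 0.0874), and the first also with no filter (0.0689). ERCC scaling moved the share of higher calls between dcKO and Dis3 cKO from 50.5% to 73.1%. The median log2 fold change of the members lay between -0.04 and 0.00 in the 4 knockout comparisons with control.

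Between MII and GV controls the log2 differences of the members ran from -4.01 to 0.76. The 9 messages were compared in MII and GV controls, and 4 were lower and 2 higher, in a comparison where 35.8% of genes were lower and 22.7% higher. Exosc5 fell from 25.1, 33.5 and 43.1 CPM at GV to 0.118, 1.83 and 4 CPM at MII (lowest, median, highest), a log2 fold change of -4.01 ± 0.30 (adjusted p = 1.23e-19). Exosc4 fell from 46.1, 54.9 and 88.4 CPM to 2.91, 11.8 and 17 CPM (-2.51 ± 0.24, adjusted p = 1.37e-14), beside -2.42 for Oplah, the oxoprolinase gene it overlaps. Neither gene's groups overlapped.

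In MII controls Exosc6 was at -3.32 relative to GV controls (log2, SE 0.47, adjusted p = 5.42e-09) and Exosc1 at -0.91 (SE 0.13, adjusted p = 3.29e-09). For Exosc1 the GV range of 52.4 to 69.3 CPM and the MII range of 25.0 to 35.6 CPM did not overlap, nor did those of Exosc6. Exosc3 took a larger share of MII counts, 66.9 to 112 CPM against 36.2 to 58.7 CPM at GV (0.76 ± 0.13, adjusted p = 1.38e-06), as did Exosc9 (0.74 ± 0.20, adjusted p = 0.00107), both without overlap. The share of all genes without overlap between MII and GV controls was not counted. Exosc7 and Exosc8 differed by -0.06 (95% interval -0.31 to 0.19) and -0.18 (-0.43 to 0.06) and Exosc2 by 0.42 (adjusted p = 0.082), and these did not pass. Exosc2 passed with DESeq2 (0.50, adjusted p = 0.033) and with counts summed over 4 title numbers (0.57, adjusted p = 0.0271). Supt20 and Ccna2, which overlap Exosc8 and Exosc9, differed by -2.39 and 1.31. Poly(A) RNA was captured by its tail, so a loss of RNA and a shortening of its tail cannot be told apart.

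Scaling to the ERCC RNAs, which were added in equal amount to each oocyte, moved the median of all genes between MII and GV controls from -0.27 to -2.12 on the log2 scale, and the share of called genes that were higher from 38.8% to 0.38%. Under it all 9 members were lower, as were 87.5% of all tested genes. Exosc3 (-1.07), Exosc9 (-1.12) and Exosc2 (-1.47) changed sign, Exosc7 was at -1.92 and Exosc8 at -2.03. Exosc3 and Exosc9 thus rose as a share of the gene counts and fell relative to the spike-in.

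**Figure D4:**
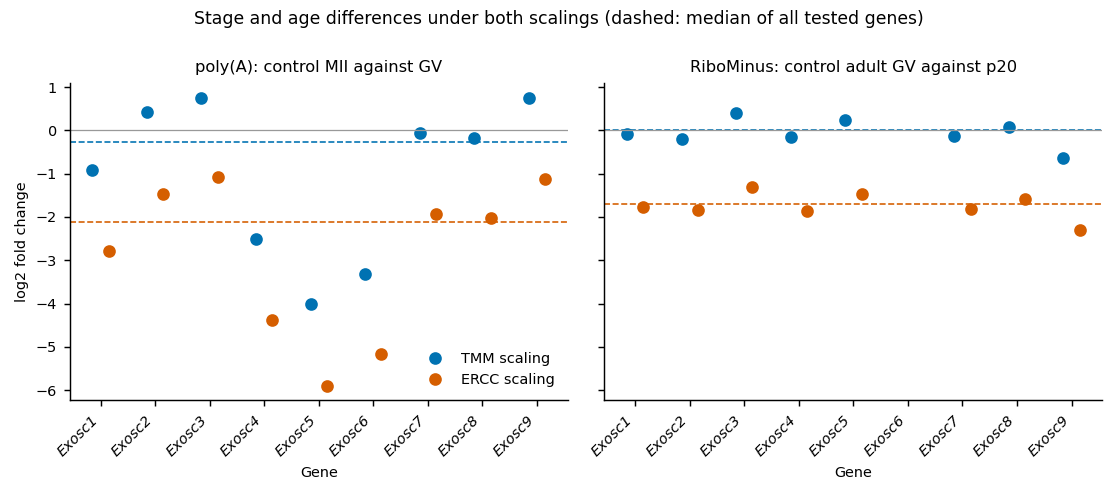
Log2 difference of each member between MII and GV controls (poly(A)) and between adult GV and p20 controls (RiboMinus) under TMM scaling and under scaling to ERCC counts. Under ERCC scaling all 9 members in the first comparison and all 8 in the second lie below 0, and Exosc3 moves from 0.76 to -1.07 in the first.

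MII and GV were not tested against each other within Dis3 cKO, so the ranges of those libraries are a description. All 16 MII libraries lay below all 15 GV libraries for Exosc1, Exosc4, Exosc5 and Exosc6, 4 of 9 members, as they did for 6.37% of the 17389 tested genes. For Exosc3 and for Exosc9, 15 of 16 MII knockout libraries lay above the highest GV knockout library, where at least that many did for 6.38% of genes. Exosc7 in MII knockout eggs exceeded the highest GV knockout level in 13 of 16 and Exosc8 in 7 of 16 (at least as many for 9.69% and 19% of genes). In controls no MII egg exceeded the highest GV level of either gene. All these levels are TMM-scaled shares of the gene counts, and ERCC-scaled levels within Dis3 cKO were not compared. Between MII and GV controls ERCC scaling moved Exosc3 from 0.76 to -1.07 and Exosc9 from 0.74 to -1.12.

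Between GV3h and GV controls 0 of 9 members were called, where 2.71% of genes were. At an unadjusted p below 0.05 there was 1, Exosc2, with a difference of 0.54 (adjusted p = 0.171), and DESeq2 called 0. The Dis3 cKO difference at GV3h was also not called different from that at GV for any of the 9 members (2.04% of genes called); 1, Exosc4, had an unadjusted p below 0.05, and DESeq2 called 0. Between MII and GV the Dis3 cKO difference was called higher for 9.28% of genes, and for 2 of 9 members, Exosc7 and Exosc8. With ERCC scaling the share of higher calls in these 3 tests went from 42.3% to 55.9%, from 67.3% to 90% and from 70.5% to 97.7%, and 5 members were called in the last, all higher, Exosc3, Exosc5 and Exosc9 beside Exosc7 and Exosc8, where 29.4% of all tested genes were called higher.

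**Figure D5:**
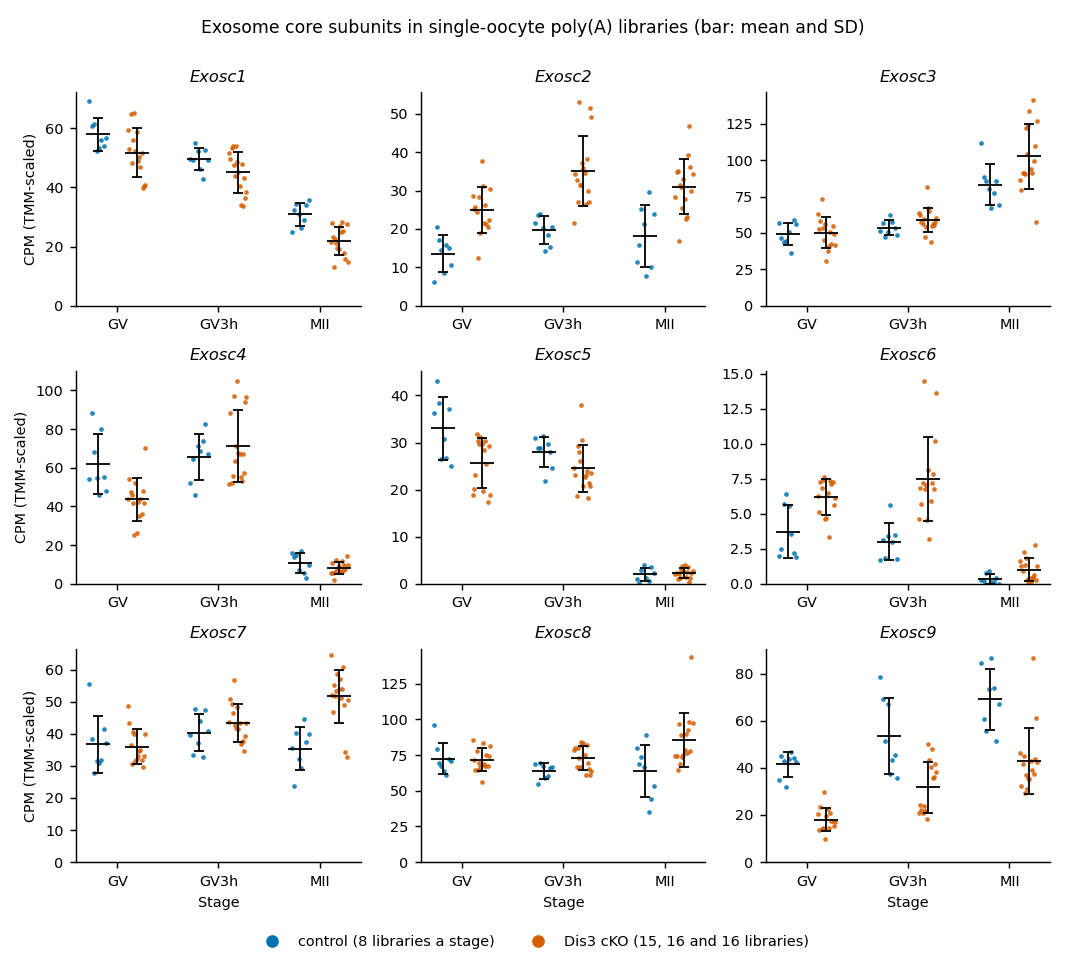
Level (CPM, poly(A)) of the 9 members in single GV, GV3h and MII oocytes of control and Dis3 cKO females, with 1 point per library and the group mean as a bar. Exosc5 drops from 25.1 to 43.1 CPM in GV controls to at most 4 CPM at MII in both genotypes, and Exosc2 is higher in Dis3 cKO at each stage.

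Between adult GV and p20 controls (RiboMinus), 1 of 8 members was higher and 1 lower, where 8.69% and 10.4% of 17267 genes were. Exosc3 held 13.4, 16.8 and 19.9 CPM at p20 and 19.3, 21.8 and 28.3 CPM in adult oocytes (0.41 ± 0.12, adjusted p = 0.0117), with 6 of 8 adult libraries above every p20 library. Exosc9 was lower in adults (-0.63 ± 0.21, adjusted p = 0.0259). With ERCC scaling the median of all genes went from -0.00 to -1.69 and all 8 members were lower in adults, as were 85.7% of tested genes, with Exosc3 at -1.31, Exosc5 at -1.48 and Exosc8 at -1.58 after a change of sign. With counts summed per title tag no member was called, where 237 of all genes were, against 3294 in the main fit. The differences were then 0.42 for Exosc3 (adjusted p = 0.247) and -0.60 for Exosc9 (adjusted p = 0.357). Adult controls also had a lower summed level of the oocyte genes, with a median of 9495 CPM against 13134 CPM at p20. The gene to ERCC ratio was 335.6 to 487.4 in adult controls and 1043 to 1600 in p20 controls. Adult and p20 titles carry different kinds of tag and do not say whether both ages were prepared together. Age and preparation therefore cannot be told apart in this comparison.

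Across the 71 poly(A) libraries the members formed groups by their log2 CPM. Exosc1, Exosc4, Exosc5 and Exosc6 correlated positively with each other (Pearson r from 0.61 to 0.86), and Exosc3 correlated negatively with each of them (-0.79 to -0.63), while r was -0.05 between Exosc8 and Exosc9. These libraries share groups and depth, so r describes stage and genotype together and carries no p. The genes most alike among all tested were Park7 (0.96) and Mrpl12 (0.95) for Exosc5, D10Jhu81e (0.95) and Ckb (0.94) for Exosc4, Hint2 (0.91) and Xrcc5 (0.90) for Exosc1, and Dhrs13 (0.88) and Atp5d (0.87) for Exosc6. They were Naa40 (0.88) and Cyb561a3 (0.87) for Exosc3, Dctd (0.78) and Unc13b (0.77) for Exosc9, Rnf6 (0.77) and Slc25a26 (0.75) for Exosc2, Gm20463 (0.68) and Rnf5 (0.67) for Exosc7, and Knstrn (0.67) and Hypk (0.62) for Exosc8.

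At the start sites, a Pol II peak within 1000 bases in at least 2 of 3 lists was found for Exosc1 and Exosc6 in p20 controls, each in 3 of 3 lists, where 7.46% of 17491 protein-coding genes had one. In adult controls no member met this (2.04% of genes), with Exosc1 and Exosc6 in 1 of 3 lists each. In adult Dis3 cKO it was Exosc6 alone, in 3 of 3 lists (6.33% of genes). The lists differ in length, from 19697 to 122606 Pol II peaks, and the longer lists are those of p20 controls and of 2 of the 3 adult Dis3 cKO libraries, so these differences between groups were not tested. No member had an H3K27me3 peak at its start in any of the 4 groups, while 19.8% to 26.8% of genes did. Exosc4 and Exosc9 were not analysed here.

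The pathway around the core was followed in a list of 17 genes: ribonucleases (Dis3, Dis3l, Exosc10), nuclear cofactors, nuclear adaptors that bring RNA to the exosome and the SKI genes that serve it in the cytoplasm. In Dis3 cKO 2 were higher and 1 lower at GV (13.6% and 8.33% of all genes), 4 and 5 at GV3h (22.9% and 15.7%), and 3 and 5 at MII (27.3% and 14.8%), with Dis3 itself among the lower genes each time and medians of -0.05, -0.03 and -0.05 beside all-gene medians of 0.04, 0.07 and 0.16. Besides Dis3, the smallest p belonged to Zfc3h1, the adaptor for polyadenylated nuclear RNA, at GV (0.56, adjusted p = 0.00109), to the cofactor C1d at GV3h (2.20, adjusted p = 3.28e-05) and to Ttc37, a SKI subunit, at MII (-0.51, adjusted p = 1.18e-05). In adult RiboMinus Dis3 cKO 1 was higher and 3 lower, Dis3 included (15.7% and 12.4% of all genes), with Zfc3h1 again next to Dis3 (0.38, adjusted p = 0.00165). With ERCC scaling the counts higher and lower became 0 and 3 at GV (7.27% and 13.3% of all genes), 3 and 2 at GV3h (17.5% and 10.6%), 6 and 1 at MII (37.6% and 4.31%) and 0 and 11 in adult RiboMinus oocytes (4.56% and 40.1%). Zfc3h1 was then at 0.29 at GV (adjusted p = 0.266) and -0.13 in adult oocytes (adjusted p = 0.606), and Ttc37 at -0.15 at MII (adjusted p = 0.47).

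At p20, 0 of the 17 were higher and 2 lower in Dis3 cKO (3.61% and 3.76% of all genes), where the cytoplasmic nuclease gene Dis3l was next to Dis3 (-0.73, adjusted p = 1.76e-05). In Exosc10 cKO 2 were higher and 1 lower, Exosc10 itself (3.95% and 3.5%), with Zcchc7, a subunit of the polyadenylating adaptor TRAMP, next to Exosc10 (0.56, adjusted p = 0.00517; 0.19 with ERCC scaling). In dcKO 5 were higher and 8 lower, both deleted genes included (26.6% and 27.1%), with Ttc37 at -1.45 (adjusted p = 4.95e-10). From GV to MII in controls 7 were higher and 3 lower (22.7% and 35.8%), led by the cofactor Mphosph6 (1.47, adjusted p = 5.56e-17) and the nuclear poly(A)-binding protein gene Pabpn1 (1.38, adjusted p = 1.64e-15). From p20 to adult GV controls 6 were higher and 4 lower (8.69% and 10.4%), led by Mphosph6 (0.45, adjusted p = 8.4e-05) and the poly(A) polymerase gene Tent4a (0.33, adjusted p = 0.000437). These rises are shares of the gene counts: with ERCC scaling all 17 were lower in both of these comparisons, beside 87.5% and 85.7% of all genes, with Mphosph6 at -0.39 and Pabpn1 at -0.48 in MII controls and Mphosph6 at -1.23 and Tent4a at -1.37 in adult controls. The p20 knockouts then had 0 higher and 2 lower in Dis3 cKO (0.781% and 5.31% of all genes), 0 and 1 in Exosc10 cKO (1.35% and 0.944%) and 4 and 7 in dcKO (17.8% and 20.4%). The list was drawn up with results of these libraries known, so its counts are a description.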

How the data were processed

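Whole-number read counts per gene were deposited by the authors for each poly(A) and RiboMinus library, with counts of spiked ERCC RNAs, and were used as deposited. CUT&Tag peak lists, deposited by the authors with a total signal per peak in their own unit, are given for each library separately; the series' design text says that reads were first sampled at random and duplicates kept. The signal was used only to filter peaks within a list. The submitters' processing notes name cutadapt 2.5, FastQC 0.11.8, STAR 2.7.2a, SAMtools 1.9, HTSeq 0.9.1, R 3.5.1, DESeq2 1.24.0, SEACR and the build mm10, with no role or order. The strand setting and annotation release are not given in the sources used here.

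Counts were tested in edgeR 4.0.16 (limma 3.58.1, R 4.3.3) with the quasi-likelihood test, TMM scaling, filterByExpr and Benjamini-Hochberg adjustment over all genes, at a threshold of 0.05. The 6 poly(A) groups shared a fit, the adult and the p20 RiboMinus groups had a fit each, and comparisons of adult with p20 used all 6 RiboMinus groups. SE was taken as the log2 fold change over the root of its F statistic, and 95% intervals are 1.96 SE either side. Log2 CPM for correlations used a prior count of 2. RiboMinus CPM of single libraries come from the fit over 48 libraries. The code was tested on simulated data.

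Symbols (99.7% and 99.4% of identifiers), loci and promoters came from RefSeq tables for GRCm38.p6. Proteins and transcript lengths were not used here. A peak at a start lay within 1000 bases in at least 2 of 3 lists. Libraries of a group all differed by more than sampling noise (smallest chi-square per degree of freedom 2.68 and 11.2). Reads carry no molecular identifiers, so counts bound counting error only. In the group pairs compared, same-numbered libraries did not deviate together (r from -0.19 to 0.17), so numbers were not treated as pairs. The Dis3 cKO stages were not compared with each other in this way, nor p20 Dis3 cKO with Exosc10 cKO. The IgG group of 3 samples and 0 other columns were not analysed here. The members and the list of 17 genes were chosen with earlier results of these data known. All members are named, from that list the genes with the 2 smallest p in each comparison, genes overlapping a member, and for each member the 2 genes of highest r. Alternatives were ERCC scaling, DESeq2 1.42.0, no filter, the title number as a block, and 2 poly(A) libraries or each RiboMinus library left out. Others were sums per title tag or over 4 title numbers, and title numbers 1 to 8 or 9 to 16 alone. For peaks they were a window of 500 bases and only peaks above their list's median signal. In comparisons of adult with p20 oocytes libraries were not left out in turn. There only the 2 p20 libraries of lowest gene to ERCC ratio were left out, together.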

Additional observations from a re-analysis of the deposited data

Results flagged for a closer look

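Of 75 sets of 4 to 10 libraries examined for a single value far from the others, 4 held one; chance gives about 1 in 20. Exosc1 stood at 62.5 CPM in p20 Dis3 cKO library 1_4 (next highest 39.3) and at 63.9 CPM in Exosc10 cKO library 2_4 (next highest 46.0). These 2 libraries have the lowest ratios of gene to ERCC counts of the p20 single knockouts, 547.4 and 582.2. Exosc2 stood at 9.37 CPM in Exosc10 cKO library 1_2 (next highest 5.55), and Exosc6 at 5.65 CPM in GV3h control library 5 (next highest 3.52). No cause was tested.

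A test of the difference between stages in the Dis3 cKO response passed for 3 members, and each call was lost under some alternatives. It was larger at MII than at GV by 0.58 for Exosc7 and 0.44 for Exosc8 on the log2 scale, and for Exosc9 it differed by -1.05 between adult GV and p20 oocytes. The Exosc7 call was lost with counts summed over 4 title numbers (adjusted p = 0.191), where 335 of all genes were called, against 2287 in the main fit. That of Exosc8 was lost with DESeq2, no filter, the replicate block, either set of title numbers alone, those sums, and without either poly(A) library left out (adjusted p from 0.0519 to 0.338). That of Exosc9 was lost with ERCC scaling (0.0834) and with sums per title tag (0.362), where 583 and 70 of all genes were called.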

How the results depend on the processing

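Over all alternatives 1528 member values stayed on their side of the threshold, 55 were no longer called and 25 were newly called. The 1528 include values called in neither fit, and 839 of them came from fits with 1 library left out. With counts summed per title tag 54 member values stayed and 10 were no longer called. Of the 1528, 86 changed sign without a call on either side, 16 with ERCC scaling (size up to 0.48) and 70 elsewhere (up to 0.14). A change of sign with a call in at least 1 of the fits occurred for 7, each with ERCC scaling: from GV to MII controls Exosc2 (-1.47), Exosc3 (-1.07) and Exosc9 (-1.12), from p20 to adult controls Exosc3 (-1.31), Exosc5 (-1.48) and Exosc8 (-1.58), and in adult Dis3 cKO Exosc3 (-0.53). With ERCC scaling the number of members called became 5 for the difference in the Dis3 cKO response between MII and GV (from 2). It became 5 in adult Dis3 cKO (from 1) and 0 in Exosc10 cKO (from 1). For dcKO against Dis3 cKO and against Exosc10 cKO it became 1 (from 2 each). Between adult and p20 controls it became 8 (from 2), and for the difference in response between adult and p20 0 (from 1). In that order 5237, 6843, 364, 5864, 5015, 14869 and 583 of all genes were called. In the main fits these were 2287, 4305, 1183, 8182, 7809, 3294 and 1610. For the MII to GV response DESeq2 gave 1, no filter 1, the replicate block 1 and sums over 4 title numbers 0. In that order these called 2656, 2168, 1937 and 335 of all genes. With no filter dcKO against Dis3 cKO had 1, where 9782 of all genes were called. The replicate block gave 4 in GV Dis3 cKO (from 2, adding Exosc4 at 0.0492 and Exosc6 at 0.0464), where it called 3649 of all genes. Beside the MII to GV response, where Exosc8 was lost at 0.0519, it changed no other count by over 1.5 times. In the group pairs compared, same-numbered libraries of different groups correlated best with each other in at most 2 of 8 cases. Sums over 4 title numbers gave 4 in MII Dis3 cKO (from 7), with 5218 of all genes called (from 7315). Title numbers 9 to 16 alone gave 1 for the GV3h to GV response (from 0, Exosc9), with 275 of all genes called (from 355). Sums per title tag gave 0 members in adult Dis3 cKO (0 of all genes called), p20 Dis3 cKO (286 genes) and Exosc10 cKO (174). They also gave 0 in dcKO against Dis3 cKO (5953 genes), adult against p20 controls (237) and the adult to p20 response (70). In dcKO against Exosc10 cKO they gave 1 (5559 genes). Here fewer samples enter each fit. Without the 2 p20 libraries of lowest gene to ERCC ratio Exosc10 cKO had 0, where 1138 of all genes were called. Leaving out RiboMinus libraries in turn, counts ran from 0 to 1 in Exosc10 cKO, from 1 to 2 in dcKO against Dis3 cKO and it was 1 for the MII to GV response without either of the only 2 poly(A) libraries left out, GV control 1 and MII Dis3 cKO 15. Where no reason is named, the cause was not tested. Counts at start sites kept their values in every alternative run. Leaving out each RiboMinus library in turn, the 2 p20 libraries, the split of title numbers, the sums over 4 of them and ERCC scaling of the list of 17 were chosen after seeing the data. Depth limits Exosc6 at MII and Exosc5 at MII, where libraries held as few as 0 and 1 counts.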
